A study of Rattus norvegicus with 24 samples.

Results

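CpGs segregating among outbred CD rats were those at which the 6 inbred BN rats were all highly methylated while some CD rats had almost no methylated reads and others were as methylated as BN. They were chosen by their methylation level: of the 396151 autosomal CpGs covered by 10 or more reads in each of the 12 rats, those with at least 80% in all 6 BN rats, at most 10% in at least 1 CD rat and at least 70% in at least 1 other CD rat were taken. This gave 341 CpGs, 0.354% of the 96316 CpGs at 80% or more in every BN rat, and they lie in 326 CpG dinucleotides and in 318 places more than 1000 bases apart. The CD levels selected them and are given below as a description. Where a fit over all CpGs includes them, its calls are counted beside the share of all CpGs called, and nothing is read from them.

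Kidney cross-sections holding cortex and medulla came from 3 female rats in each of 4 groups: non-pregnant Sprague Dawley (CD-NP), Sprague Dawley at day 18 of pregnancy (CD-P18), non-pregnant Brown Norway (BN-NP) and Brown Norway at day 18 of pregnancy (BN-P18). CD is an outbred stock, whose animals differ from each other in genome sequence, and BN is an inbred strain, whose animals are nearly identical. The labels give an age of 2 months for all rats, which per the methods was their age on arrival. Pregnant rats had been mated with males of their own strain, and no group carried an engineered allele or received a drug as a treatment. Per the methods, rats were under isoflurane when tissue was collected. The tissue is a mixture of cell types, so a level is an average over cells, and shares of cell types were not analysed here.

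Methylation was read by reduced representation bisulfite sequencing (RRBS), which sequences CpG-rich fragments cut by a restriction enzyme. Bisulfite turns an unmethylated C into a base read as T and leaves a methylated C as C, so the level is the percent of reads with C. At most CpGs of a mammalian genome both chromosome copies are methylated, and the CpG is itself a frequent place of C-to-T change in DNA, since a methylated C can deaminate to T. A T in a rat's own DNA is read in this assay as an unmethylated C. The reads were aligned to Rnor6.0, an assembly made from the BN strain, and genotypes of these rats were not analysed here. A T in the DNA and an unmethylated C were therefore not told apart here by the levels of either strand. The word segregating describes the levels, not a known genotype.

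Coverage summed over all listed CpGs was 21669162 to 44738436 reads per rat, and CD-NP 3 was the shallowest. At the segregating CpGs the median coverage was 16 reads in CD-NP 3, 17 in CD-NP 2, 23 in CD-P18 2, 27 in CD-NP 1, 29 in CD-P18 3 and 30 in CD-P18 1. Counting error alone is thus wide for a single value, and it is widest in CD-NP 2 and CD-NP 3.

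The levels of the CD rats fell into 3 ranges. Of the 2046 values (341 CpGs in 6 rats), 600 were low (at most 10%), 756 were middle and 690 were high (at least 70%), or 29.3, 37.0 and 33.7%. In the low class 523 values, or 87.2%, were exactly 0, and 91 of 15134 reads (0.601%) carried a C. The middle class had a median of 47.0% with an interquartile range of 40 to 53.9%, and 685 of its 756 values lay between 30 and 65%. Relative to the BN mean at the same CpG, the median middle value stood at 50% and the median high value at 99.8%. The exact binomial 95% interval of a middle value held 50% in 96.2% of cases, an interval that is wide at a median coverage of 24 reads and covers counting error only. Between the ranges the values were sparse, with 43 of 2046 between 10 and 30% and 87 between 65 and 80%.

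The rule demands at least 1 low and 1 high value per CpG, and 1 of each was set aside to count the other 4. Of these remaining values 756 were middle (55.4%), 349 high (25.6%) and 259 low (19%). Setting aside only low and high values raises the middle share, so these shares are not free of the rule. The median span between the lowest and the highest CD rat at a CpG was 96 points, against 10 points among the 6 BN rats, both partly set by the rule.

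**Figure D1:**
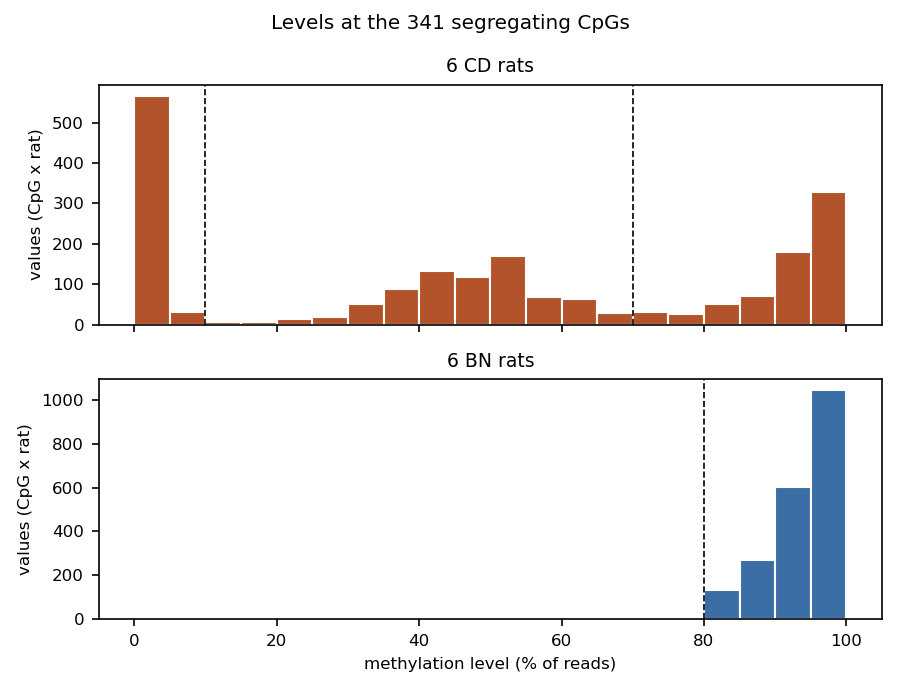
Number of values (1 CpG in 1 rat) by methylation level in bins of 5 points, for the 6 CD rats (top) and the 6 BN rats (bottom) at the 341 segregating CpGs. Dashed lines mark the limits of the rule. The CD values gather near 0, near 47.0 and above 90%, while the BN values all lie at 80% or more, as the rule demands.

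The CpGs read most deeply show the 3 ranges in single rats. They are named by a rule on coverage, the highest lowest coverage over the 12 rats. The C at chr10:5768512 (plus strand) had 2.44% in CD-NP 1, 42.3% in CD-NP 2, 44.8% in CD-NP 3, 91.1% in CD-P18 1, 40.7% in CD-P18 2 and 34.7% in CD-P18 3, while the BN rats had 83.3 to 92.3%. One CD rat was low, 1 was high and the other 4 lay between them. At chr10:16108158 (minus strand) the levels were 46.4, 100 and 45.8% in CD-NP 1 to 3 and 0, 0 and 94.9% in CD-P18 1 to 3, with 88.9 to 96.4% in BN. Here each range held 2 rats. At chr2:199439149 (plus strand) CD-NP 1 to 3 had 59.4, 47.8 and 96.2% and CD-P18 1 to 3 had 36.6, 51.4 and 0%, with 92.5 to 100% in BN. CD-P18 3 was the only low rat at this CpG, none of its 36 reads carrying a C. At chr8:102617892 (minus strand) the CD-NP rats had 52.3, 91.4 and 0% and the CD-P18 rats 95.3, 55.6 and 100%, with 90.9 to 100% in BN. At chr15:50982915 (plus strand) they had 0, 61.9 and 100%, and 46.3, 1.79 and 92.3%, with 92.9 to 100% in BN. At chr1:95053148 (plus strand) they had 0, 54.5 and 43.8%, and 0, 88.9 and 40.7%, with 88.9 to 100% in BN. The other 4 CpGs of this rule, chr1:274397892, chr1:192463676, chr7:27955699 and chr16:71918968, had lowest CD levels of 0 to 2.63% and highest of 72.4 to 97.7%.

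Most segregating CpGs were low in few rats. Exactly 1 CD rat was low at 184 of them, 2 at 90, 3 at 39, 4 at 21 and 5 at 7. At 27 no rat was in the middle range. The 341 CpGs showed 232 different orders of low, middle and high over the 6 rats.

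**Figure D2:**
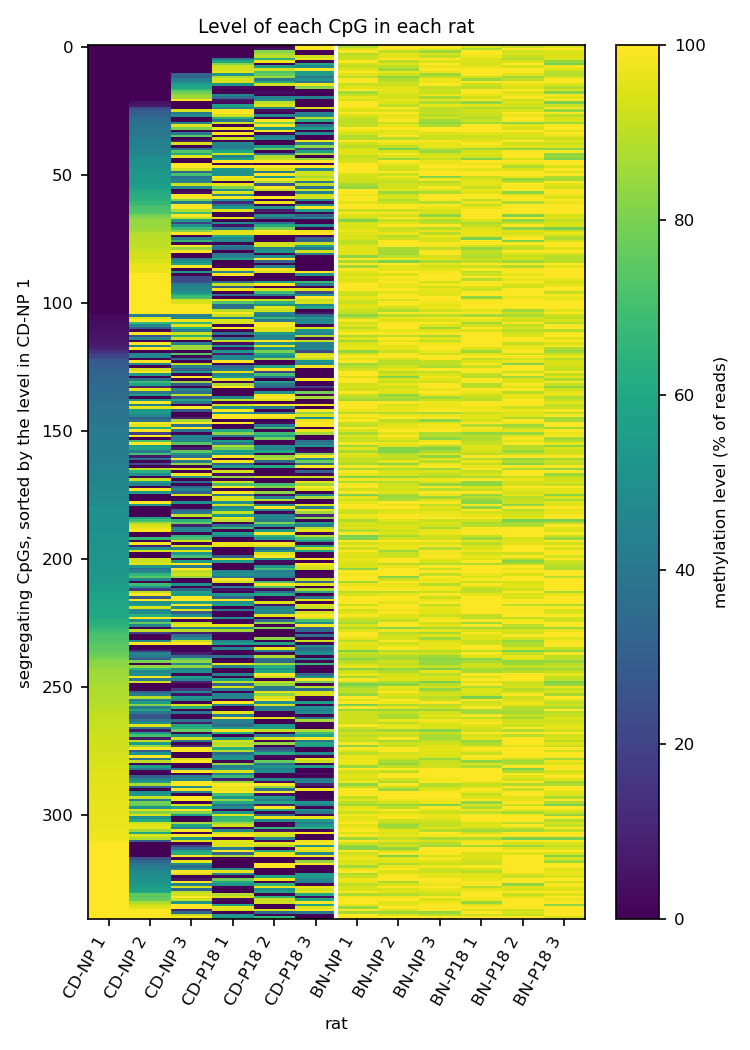
Methylation level (colour, percent of reads) of the 341 segregating CpGs (rows, sorted by the level in CD-NP 1) in the 12 rats (columns). Low, middle and high levels alternate among the CD rats from row to row, and the BN columns are high throughout, as the rule demands.

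Every CD rat had CpGs in each range. The number of low CpGs was 119 in CD-NP 1, 73 in CD-NP 2, 93 in CD-NP 3, 100 in CD-P18 1, 102 in CD-P18 2 and 113 in CD-P18 3. The CD-NP rats averaged 95 ± 23.1 and the CD-P18 rats 105 ± 7 low CpGs (SD, n = 3), a difference of 10 that is given without a test, since low values entered the rule. Without CD-NP 2, the rat with the fewest, the difference was -1, and without CD-NP 1, the rat with the most, it was 22. High CpGs numbered 112 to 120 and middle CpGs 110 to 151 per rat.

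The BN-high CpGs that did not qualify give the frame for these numbers. Of the 96316, 92552 were at 70% or more in all 6 CD rats and 177 were at 10% or less in all 6. Another 203 had a low CD rat but no high one, and 3043 had no low rat without being high in all. With the strains exchanged (80% or more in all CD, low and high among BN), 3 of 93977 CpGs qualified. Of these, 2 are the strands of a single dinucleotide at chr8:89650409, where BN-P18 3 had 0%, BN-NP 1 had 48.0% and BN-NP 3 had 41.5% and the other BN rats 95.2 to 100% on the plus strand. On the X chromosome, outside the set, 6 CpGs met the original rule.

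Values on the limits of the rule show how sharply it cuts. The lowest BN value of chr1:215149892 was 80%, just inside, and that of chr3:10615478 was 79.3%, just outside. The lowest CD value was 10% at chr3:153133537, inside, and 12.8% at chr10:55197821, outside. The highest CD value was 70% at chr5:155323101, inside, and 69.6% at chr14:10898915, outside.

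The set was spread over all 20 autosomes, from 1.90 per 1000 BN-high CpGs on chromosome 19 to 4.97 on chromosome 3. The segregating CpGs had a median of 2 other CpG dinucleotides covered within 50 bases, against 1 for the other BN-high CpGs, and 9.97% against 24.9% had none. The 177 CpGs at 10% or less in all 6 CD rats also had a median of 2, and 10.7% of them had none. By strand, 174 of the 341 lay on the plus strand (51.0%, against 51.7% of the other BN-high CpGs).

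The C on the opposite strand of the same CpG is a separate measurement from other reads. Likeness of the strands is given as a description, and whether a low level came from a change in the DNA was not tested. It was covered in all 12 rats at 34 segregating CpGs, in 19 dinucleotides, and 15 of these dinucleotides were in the set by both strands. Over the 19 dinucleotides and 6 CD rats, 110 of 114 values fell into the same range on both strands (96.5%), and the median over dinucleotides of the mean difference between strands was 7.01 points, with a highest of 12.1. At chr4:125909673 the plus strand had 100, 40.9 and 33.3% in CD-NP 1 to 3 and 0, 100 and 0% in CD-P18 1 to 3, and the minus strand, 1 base on, had 88.9, 42.9 and 47.4%, and 0, 100 and 0%. At chr8:119090948, where the minus strand missed the rule with a lowest BN value of 78.6%, the plus strand had 0, 22.2 and 0%, and 47.2, 45.2 and 93.2%. The minus strand had 0, 37.5 and 0%, and 51.6, 48.0 and 91.7%. The order of the 6 rats by range was the same on both strands at both dinucleotides.

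The neighbouring CpGs did not follow. For 304 of the 341, the nearest CpG of another dinucleotide outside the set, within 50 bases and covered in all 12 rats, lay at a median distance of 12 bases. Between low and high rats the segregating CpG differed by a median of -93.1 points and its neighbour by -1.87 points, with an interquartile range of -6.38 to 2.38. The neighbour differed by under 10 points at 247 of the 304 (81.25%). At 0 of the 304 did the neighbour differ in the same direction by at least 50% of the difference at the segregating CpG. Leaving the set's own members out as neighbours favours that 0. With members allowed, 8 of 307 neighbours did so, and all 8 were themselves segregating CpGs. Of the 177 CpGs low in all CD rats, 158 had a neighbour and at 1 it was lower than in BN by at least 50% of the difference at the CpG itself. At chr10:5768512 the neighbour 4 bases away had 94.7% in CD-NP 1, the low rat, and 88.4% in CD-P18 1, the high rat, and 84.0 to 100% over the 6 CD rats. At chr4:125909673 the neighbour 9 bases away differed by -16.5 points, where the CpG itself differed by -100 points.

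A small difference remained at the neighbours within rats. In each CD rat, the neighbour's level relative to the BN mean was averaged over the CpGs at which that rat was low and over those at which it was high. Low minus high was -4.54 points in CD-NP 1, -0.582 in CD-NP 2, -0.721 in CD-NP 3, -1.59 in CD-P18 1, -0.872 in CD-P18 2 and -1.11 in CD-P18 3. The mean was -1.57 ± 1.5 points (SD, n = 6), below 0 in 6 of 6 rats (2-sided exact sign-flip permutation p = 0.03125, the smallest that 6 rats allow). The 6 rats share CpGs and BN means, so their values are not independent, while the sign-flip tests here and below treat them as if they were. With neighbours limited to 20 bases it was -1.43 points with an exact p of 0.09375. Read depth at the segregating CpG, as log2 coverage relative to the neighbour, differed between low and high by -0.0143 ± 0.0161 (SD, n = 6, exact sign-flip p = 0.125), a ratio of 0.990. Set against the library's median coverage instead, it was 0.0041 with an exact p of 0.96875. Every segregating CpG and neighbour had to have 10 or more reads in each rat. CpGs at which a low rat had fewer reads were thus left out beforehand. These depth differences therefore cannot show whether reads were lost in low rats, and nothing is read from them.

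**Figure D3:**
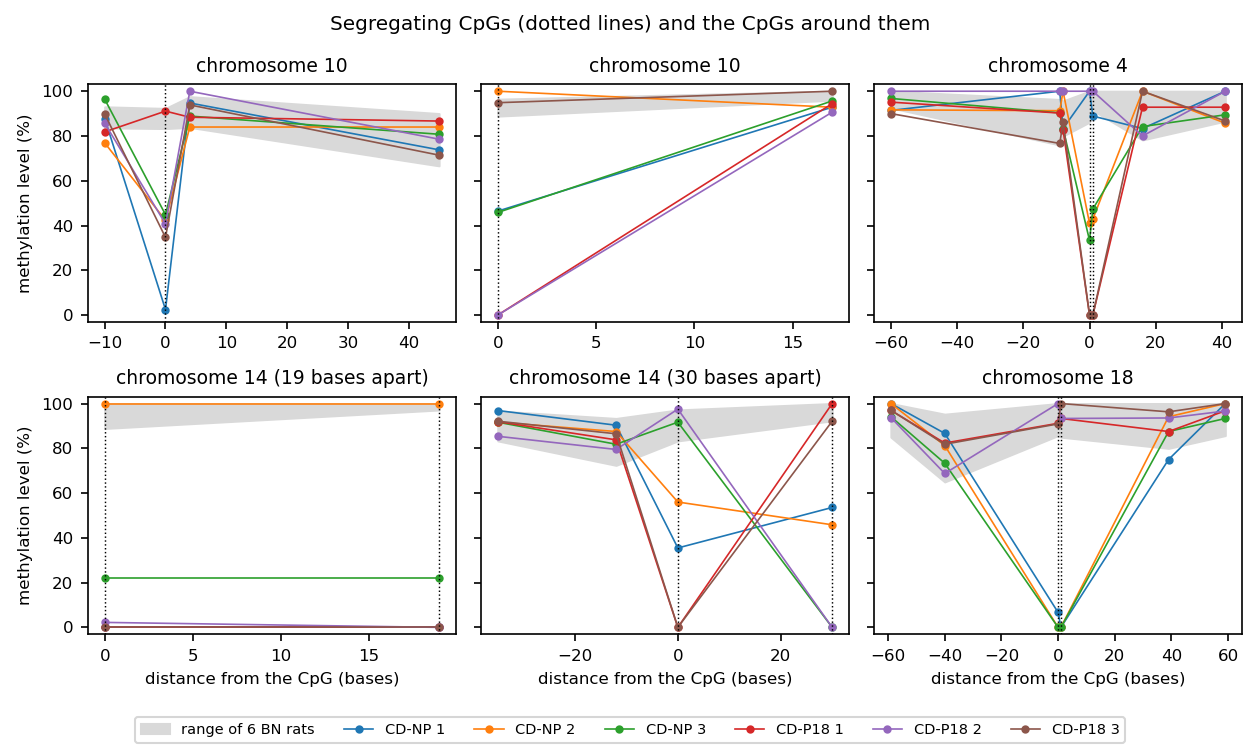
Methylation level (percent) of the 6 CD rats (lines) and the range of the 6 BN rats (grey) by distance in bases from 6 segregating CpGs, with dotted lines at CpGs of the set. On chromosomes 4, 10 and 18 the CD rats part at the dotted lines and come together at the CpGs beside them. The pairs on chromosome 14 run in parallel in 1 case and cross in the other.

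Segregating CpGs close to each other often shared their order of rats. Within 1 kb there were 8 pairs of separate dinucleotides, 4 to 48 bases apart. In 6 of these, all 6 rats fell into the same range at both. Both CpGs of each pair lay on the same strand and closer than the length of the study's reads. The same reads can thus cover both, and the levels of a pair are not separate measurements. At chr14:28544205 and chr14:28544224, 19 bases apart on the minus strand, CD-NP 1 to 3 had 0, 100 and 22.2% at both, and CD-P18 1 to 3 had 0, 2.22 and 0% at the first and 0, 0 and 0% at the second. Here CD-NP 2 was the only high rat at both. At chr14:6934758 and chr14:6934788, 30 bases apart on the plus strand, the levels were opposite. The first had 35.5, 56.0 and 91.7% in CD-NP 1 to 3 and 0, 97.5 and 0% in CD-P18 1 to 3, and the second had 53.6, 45.8 and 0%, and 100, 0 and 92.1%. Each rat that was low at one was high at the other, and both middle rats were middle at both. At chr10:89568628 and chr10:89568676 the ranges matched in 3 of 6 rats. The other 5 pairs, at chr1:10887272, chr1:15506386, chr6:989504, chr7:132422230 and chr18:38649050, had the same range in all 6 rats.

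Farther apart, pairs alike and pairs opposite both occurred. Pearson's r between the levels of a pair over the 6 CD rats is given as a description, since pairs share rats, libraries and CpGs. Within 1 kb its median was 0.99 over the 8 pairs, and at 1 to 100 kb it was 0.69 over 28 pairs, with quartiles of -0.54 and 0.97. At 100 kb to 1 Mb the median over 81 pairs was 0.03, but the quartiles were -0.76 and 0.65, and r was under -0.5 in 33 of the 81. On different chromosomes the median over 50006 pairs was 0.00175, with quartiles of -0.35 and 0.36, and r was under -0.5 in 7936. In between, the quartiles were -0.56 and 0.50 over 200 pairs at 1 to 5 Mb, with r under -0.5 in 54. They were -0.33 and 0.38 over 498 pairs at 5 to 20 Mb, and -0.37 and 0.35 over 2154 pairs over 20 Mb apart. The pairs at 100 kb to 1 Mb thus spread more widely to both signs than those on different chromosomes. The same range in all 6 rats was found in 7 of the 28, 8 of the 81 and 0.178% of the 50006.

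**Figure D4:**
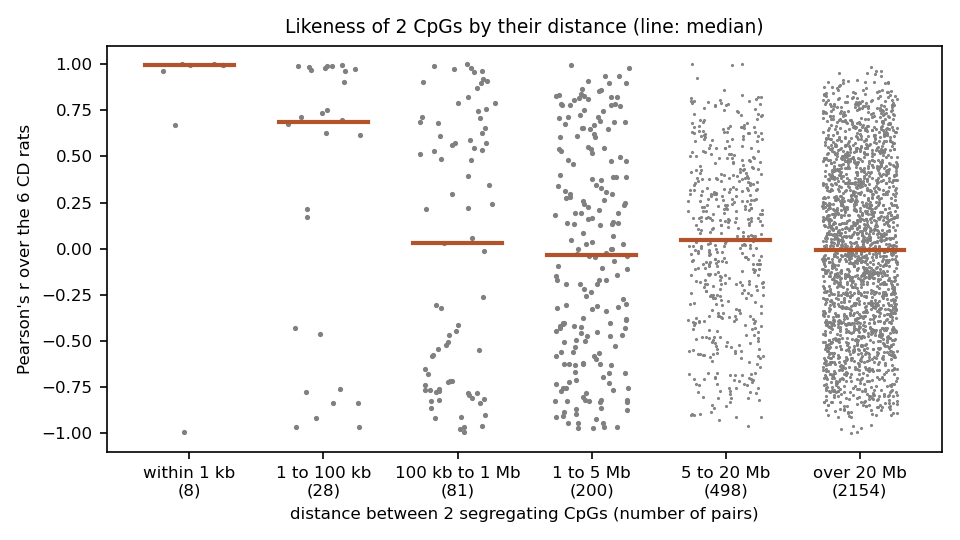
Pearson's r between the levels of 2 segregating CpGs over the 6 CD rats (vertical axis), by the distance between them (horizontal axis, number of pairs in brackets), with each point a pair and the line the median. The median is 0.99 within 1 kb and 0.03 at 100 kb to 1 Mb, where the points spread to both signs with quartiles of -0.76 and 0.65.

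The comparison of P18 with NP asks which CpGs change in pregnancy, and rats that differ from each other at a CpG enter it as well. In CD, 65 of the 341 segregating CpGs were called (adjusted p under 0.05 from the logistic model with dispersions moderated by limma, and a difference over 10 points), 36 higher and 29 lower in P18. Over all 404069 CpGs tested, 195 were called, or 0.0483%. The segregating CpGs were thus 19.1% called and made up 33.3% of all calls. Since the rule demands a wide spread among CD rats, a call needs only an uneven split of that spread, and nothing is read from the excess. At an unadjusted p under 0.05 there were 201 of 341, against 3.35% of all CpGs. Of the 195 called CpGs, 119 (61.0%) had both a low and a high CD rat, against 0.164% of all CpGs tested. A call itself needs a difference among CD rats, over 25 points at 189 of the 195, so nothing is read from this share either. In BN, where the rule holds every rat at 80% or more, 0 of the 341 were called (limma-moderated test), against 1 of all CpGs (0.000247%), and 14 (4.11%) had an unadjusted p under 0.05, against 3.52% of all.

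The called counts depend on how the dispersion is estimated. With limma's robust moderation, added after the data were seen, 300 CpGs were called in CD and 61 of them were in the set, 43 of which were also among the 65. With each CpG's own dispersion 0 of all 404069 CpGs were called in CD. Without CD-P18 1 the count in the set was 99, with 315 called over all CpGs (0.0780%). Without CD-P18 2 it was 101, with 283 over all (0.0700%).

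The 6 CpGs with the smallest p in CD are named with their levels alone, since they were picked by that p from CpGs chosen for their spread. At chr18:62595206 (minus strand) CD-NP 1 to 3 had 0, 0 and 0% and CD-P18 1 to 3 had 93.3, 93.3 and 100%, with 85.0 to 100% in BN. The means were 0 ± 0 and 95.6 ± 3.85% (SD, n = 3). The plus strand of this dinucleotide, chr18:62595205, had 6.67, 0 and 0%, and 91.2, 100 and 90.9%. At chr19:1025752 (minus strand) the CD-NP rats had 0, 50 and 0% and the CD-P18 rats 100% each. At chr17:25199139 (minus strand) the direction was opposite, with 44.4, 90 and 95.2% in CD-NP and 0% in each CD-P18 rat. At chr12:43719501 (plus strand) the levels were 82.2, 80 and 83.3% in CD-NP and 0, 33.3 and 0% in CD-P18. At chr3:165894645 (minus strand) they were 0, 54.2 and 43.3% in CD-NP and 94.7, 100 and 94.4% in CD-P18. A CD-NP rat stood in the middle range at chr19:1025752 and at chr17:25199139, 2 did at chr3:165894645, and a CD-P18 rat did at chr12:43719501.

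**Figure D5:**
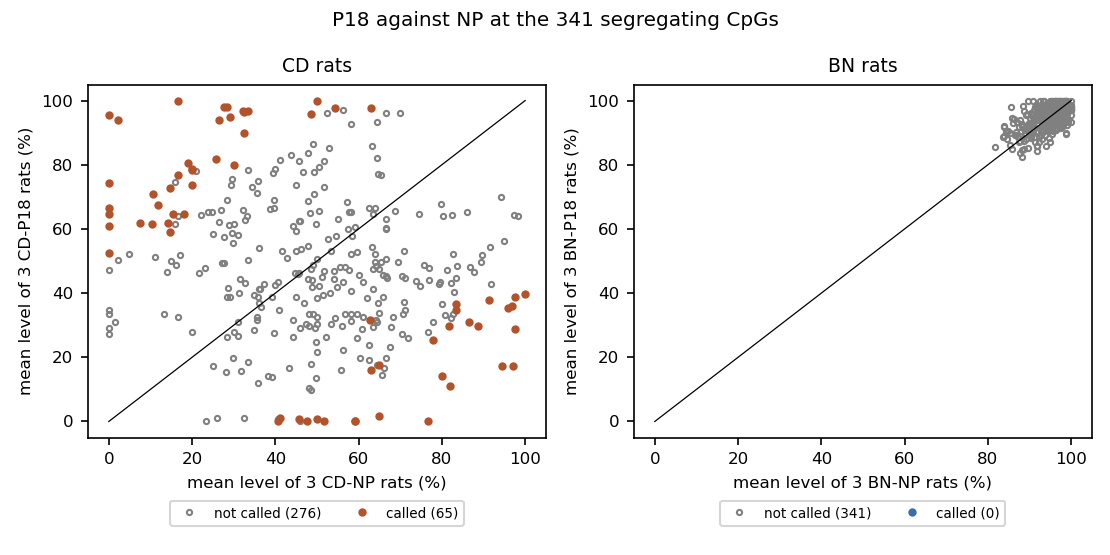
Mean methylation level of the 3 P18 rats (vertical axis, percent) against that of the 3 NP rats (horizontal axis, percent) at the 341 segregating CpGs in CD (left) and BN (right), with called CpGs filled. In CD, 36 called CpGs lie above and 29 below the line of equal levels, and in BN none is called.

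A pair of CD rats fell into the same range at 33.1 to 39.6% of the 341 CpGs within a stage (6 pairs) and at 25.5 to 32.6% between stages (9 pairs). Over the 276 of them without a pregnancy call in CD, the shares were 27.9 to 37.7% within and 28.6 to 37.7% between stages. Leaving out called CpGs takes away those split by stage. These shares rest on the ranges of the rule, were computed after the data were seen and are given without a test. Outside the 341, over 742 CpGs with a high CD rat, one at 30 to 60% and no low one, the shares were 51.5 to 60% within and 48.0 to 62.0% between stages. Over the 203 CpGs with a low CD rat and no high one they were 50.7 to 59.6% within and 45.3 to 55.7% between. Which rats were related was not analysed here.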

How the data were processed

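RRBS libraries of kidney cross-sections from 12 rats were used, grouped by the strain, stage and number in their labels. The authors trimmed reads (Trim Galore 0.4.5 and the NuGEN diversity script), removed duplicates by N6 tags, aligned to Rnor6.0 with Bismark 0.16.34, and deposited methylKit (1.16.1) lists, versions per the submitters' processing notes. In the deposited lists a line holds the position and strand of a C, the read count there (coverage) and which percent of it was C or T. Methylated reads were recovered as coverage times percent. The lowest coverage listed was 5 reads, and 10 reads were required in all 12 rats (404069 CpGs). The deposited RNA counts were not used here, and no gene is named because no annotation of Rnor6.0 was used.

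The segregating CpGs, the lists and the tests were chosen with earlier results of these data known. Named CpGs were those with the highest lowest coverage (10), those with both strands covered (up to 6), groups within 1000 bases with more than 1 dinucleotide, and the 6 with the smallest p for pregnancy in CD. Nothing states that the rats of a group came from separate litters, so p-values measure the spread between these rats. Pregnancy was tested per strain and CpG by a logistic model over 3 against 3 rats, with an F test and Benjamini-Hochberg adjustment over all CpGs. Dispersions of CpGs at 10 to 90% were moderated by limma 3.58.1 (squeezeVar, trend over coverage, prior from these CpGs). Outside that range the larger of the prior and the CpG's own dispersion was used. No dispersion was taken under 1. Robust moderation was tried after the counts of the plain form had been seen, as were other forms of the prior, and the form written first was kept. Same-numbered rats did not deviate together (r from -0.0135 to 0.0183 over all CpGs), so no block was used. Scripts ran in Python 3.11.15 and R 4.3.3 and were tested on simulated data. Alternatives are given in the closing section. Counting intervals cover counting error only.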

Additional observations from a re-analysis of the deposited data

Results flagged for a closer look

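The neighbour difference between low and high CpGs in CD-NP 1, -4.54 points, stood apart from the other 5 CD rats (-0.582 to -1.59 points). Its gap to the nearest rat was 0.745 of the whole range, above the 95% critical value of Dixon's test for 6 samples. Of 6 per-rat values examined this was the one past its critical value, and chance passes about 1 in 20 such groups. CD-NP 1 also had the most low CpGs, 119. The part of either in the other was not tested.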

How the results depend on the processing

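Of the alternatives, a minimum of 20 reads left 15 segregating CpGs, with 42.2% of values middle and 0 called in CD (1 of 25285 over all CpGs). There each rat no longer had low and high CpGs, so neighbour and coverage tests gave no value. A BN minimum of 90% left 140. Leaving out each of the 12 rats gave 281 to 357 CpGs, and leaving out each CD rat gave a middle share of 32.8 to 35.4%. Neighbours moving alike numbered 3 at 25% of the difference, 1 within 200 bases, 8 with members allowed and 0 to 1 with a rat left out. The neighbour difference was -1.43 points within 20 bases (exact sign-flip p = 0.09375). It was -2.04 to -1.34 with a rat left out, where 5 rats cannot go below an exact p of 0.0625. With members allowed as neighbours it was -3.73 points, but the levels of those members entered the rule. The coverage difference turned to 0.0041 against the library median, and was -0.0160 to -0.00758 with a rat left out. Nothing is read from it, since the minimum of reads entered the choice of CpGs. The difference in low CpGs ran from -1 to 22 with a rat left out. Calls in CD within the set were 0 with own dispersions (0 over all CpGs) and 171 without overdispersion (724 over all CpGs). They were 59 to 101 with a rat left out (154 to 315 over all), and 61 with robust moderation (300 over all, against 195). With the replicate block they were 96, 57 of them among the 65 (305 over all CpGs), and 0 in BN (35 over all). The cause of these changes was not tested. Calls in BN within the set stayed at 0 in all 12 alternatives. Depth limits single values most in CD-NP 2 and CD-NP 3. Expression of host genes was planned and not run, since no annotation of the build was used.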
